A study of Homo sapiens with 2 samples.

Results

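The regions described here were the MYBL2 ChIP-seq peaks of A673 cells that lay between genes at some distance from any promoter. A peak was counted when its summit, the base with the highest pileup, lay in no protein-coding or long non-coding RNA (lncRNA) gene body and 10 to 100 kb from the nearest transcription start site (TSS) of such a gene in the GENCODE annotation of hg19. This rule used positions only and no measured strength, and it selected 3616 of 66954 peaks (5.401%, exact 95% binomial interval 5.23 to 5.57%). A673 is an established Ewing sarcoma (EwS) cell line, which carries the EWSR1-FLI1 fusion, and the cells were labelled wild type. The study sequenced 1 chromatin immunoprecipitation (ChIP) library made with an antibody given as anti-MYBL2 in the sample labels and as directed at the phosphorylated, activated protein in the study's methods, and 1 input library of the same cells without immunoprecipitation. Neither group had a replicate, so no test between samples was possible, and every interval below covers counting error only.

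MYBL2 (B-MYB) is a transcription factor that binds MYB recognition elements and, together with the MuvB complex, promoters of genes used in the G2 and M phases of the cell cycle. Regulatory DNA far from promoters, such as enhancers, is bound by sequence-specific factors, among them AP-1, TEAD and ETS proteins, and can act on genes that are not the nearest one. In EwS, EWSR1-FLI1 is known to bind tandem GGAA repeats (GGAA-microsatellites) and to use them as enhancers. The nearest gene is given below as a position, not as a target, and distances run from the summit to the nearest TSS of the gene named.

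Several kinds of sequence carried the results and are printed from the GRCh37 assembly (hg19 coordinates), plus strand, in lower case. First are the windows of 50 bp to either side of the summit of the 5 strongest peaks, shown because they differed widely in composition and 1 of them, near ENSG00000287582, held one of the 11 motifs searched, a CCAAT box (in capitals, read on the other strand), and the other 4 held none. Each is named by its nearest gene.
SIRT4, chr12:120729435-120729535: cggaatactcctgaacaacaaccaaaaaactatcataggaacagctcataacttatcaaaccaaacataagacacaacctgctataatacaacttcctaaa
PRKAB2, chr1:146556118-146556218: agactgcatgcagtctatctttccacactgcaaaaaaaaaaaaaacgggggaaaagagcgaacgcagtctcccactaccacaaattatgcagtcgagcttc
TMEM106A, chr17:41393303-41393403: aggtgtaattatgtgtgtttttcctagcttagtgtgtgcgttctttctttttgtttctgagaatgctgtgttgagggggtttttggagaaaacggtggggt
ENSG00000287582, chr1:54954025-54954125: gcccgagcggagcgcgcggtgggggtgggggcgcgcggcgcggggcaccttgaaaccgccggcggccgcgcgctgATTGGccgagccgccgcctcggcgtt
ENSG00000268375, chr19:51307807-51307907: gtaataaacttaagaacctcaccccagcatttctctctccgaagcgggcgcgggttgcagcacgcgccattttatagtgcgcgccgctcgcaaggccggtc

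Next are summit windows of the strongest peaks that held the 8-letter word ATTTCCTG or the AP-1, MYB or ETS motif. Windows for other motifs, TEAD and E2F among them, are not shown. The motifs were sought on both strands. Only the motif for which a window was chosen is in capitals, and several windows hold others in lower case. The POLR2M window also holds ATTTCCTG on the other strand, and the ETV3 window the MYB motif. The 8-letter word ATTTCCTG (CAGGAAAT on the other strand) is in capitals in the first 3, the AP-1 motif TGANTCA in the next 2, the MYB motif (TAACGG, the same with C in first place, and both with T in the fifth place) in the next 1 and the ETS motif CCGGAAGT in the last 2.
LINC01777, chr1:4488961-4489061: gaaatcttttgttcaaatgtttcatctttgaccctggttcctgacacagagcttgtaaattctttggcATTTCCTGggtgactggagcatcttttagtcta
SPRY1, chr4:124339698-124339798: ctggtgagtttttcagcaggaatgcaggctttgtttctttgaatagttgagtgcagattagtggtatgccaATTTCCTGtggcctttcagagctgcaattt
PHLPP1, chr18:60340809-60340909: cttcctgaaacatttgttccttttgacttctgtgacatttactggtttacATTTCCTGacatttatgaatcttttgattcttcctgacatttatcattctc
ENSG00000236173, chr6:170251957-170252057: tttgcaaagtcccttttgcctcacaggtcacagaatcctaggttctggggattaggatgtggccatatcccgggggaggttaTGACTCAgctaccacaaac
IPO7, chr11:9386007-9386107: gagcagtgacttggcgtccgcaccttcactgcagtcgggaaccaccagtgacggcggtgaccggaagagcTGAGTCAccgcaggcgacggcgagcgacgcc
ENSG00000224132, chr2:238190776-238190876: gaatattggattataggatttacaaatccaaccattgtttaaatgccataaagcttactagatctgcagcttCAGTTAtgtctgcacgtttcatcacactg
POLR2M, chr15:58081528-58081628: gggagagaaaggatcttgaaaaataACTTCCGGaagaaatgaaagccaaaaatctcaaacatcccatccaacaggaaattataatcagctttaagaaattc
ETV3, chr1:157118295-157118395: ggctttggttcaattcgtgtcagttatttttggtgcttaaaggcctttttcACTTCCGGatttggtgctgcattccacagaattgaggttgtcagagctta

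Last are GGAA tracts of the reference, in capitals with 30 bases on each side, from the 3 strongest peaks that touched a tract of at least 10 repeats and, as the fourth, from the strongest peak upstream of CCND1, the gene of cyclin D1. TTCC is GGAA read on the other strand.
ANKRD9, chr14:102991926-102992037, 13 repeats: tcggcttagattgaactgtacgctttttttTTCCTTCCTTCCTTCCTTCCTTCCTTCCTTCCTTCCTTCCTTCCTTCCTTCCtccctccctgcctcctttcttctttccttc
LINC02066, chr3:151297636-151297735, 10 repeats: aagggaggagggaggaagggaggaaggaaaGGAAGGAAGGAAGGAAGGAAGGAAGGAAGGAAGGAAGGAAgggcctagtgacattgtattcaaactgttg
ENSG00000287015, chr1:90534471-90534578, 12 repeats: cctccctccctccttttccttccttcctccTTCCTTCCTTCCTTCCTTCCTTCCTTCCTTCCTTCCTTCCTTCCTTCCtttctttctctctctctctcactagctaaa
CCND1, chr11:69436893-69437012, 15 repeats: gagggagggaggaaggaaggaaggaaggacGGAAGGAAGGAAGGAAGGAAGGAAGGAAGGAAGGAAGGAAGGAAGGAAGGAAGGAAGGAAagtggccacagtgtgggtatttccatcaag

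The distal intergenic peaks were mostly weak and narrow, as were most peaks of the whole list. Fold enrichment, the authors' ratio of ChIP fragments over the summit to the background there, each with 1 added, had a median of 3.81 (quartiles 3.20 and 4.77, range 1.54 to 59.98). The background had a floor of 3.45 fragments, and 15.8% of these peaks lay at it, against 20.3% of all peaks. At the floor the ratio is not to a local input level. The median summit was covered by 20 fragments, a pileup solved here from the deposited fold enrichment and p-value, for which counting error alone gives a 95% Poisson interval of 12.2 to 30.9. Small differences between single peaks of this height were not detectable at this depth. A fold enrichment of at least 5 was reached by 773 peaks (21.4%, interval 20.1 to 22.8%), against 24.0% of all peaks. Widths had a median of 309 bp (quartiles 214 and 488 bp, range 164 to 8102 bp). At least 1 kb wide were 225 peaks (6.22%), against 11.2% of all peaks. Over all 66954 peaks the median fold enrichment was 3.79 and the median width 319 bp. Strength and width ran together across the 3616 peaks (Spearman's rho 0.52, a description over peaks of 1 library that share its depth). Strength and distance from the nearest TSS did not (rho 0.02).

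Placed beside the other classes, these peaks had medians of strength and width close to those of intergenic peaks over 100 kb from a TSS. The 729 peaks over 100 kb away had a median fold enrichment of 3.86 and a median width of 304 bp, and 25.8% of them (interval 22.6 to 29.1%) reached 5, against the 21.4% given above. The 15340 peaks in gene bodies at least 10 kb from a TSS were lower, with 3.49 and 277 bp, and a fold enrichment of at least 5 was reached by 10.8% of them (interval 10.3 to 11.3%). The 22943 peaks at promoters, with a base within 1000 bp of a TSS, had medians of 4.75 and 492 bp, and 47.2% of them (interval 46.6 to 47.9%) reached 5. The median background at the summit was 4.44 fragments in the distal intergenic peaks and 3.82 fragments at promoters.

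**Figure D1:**
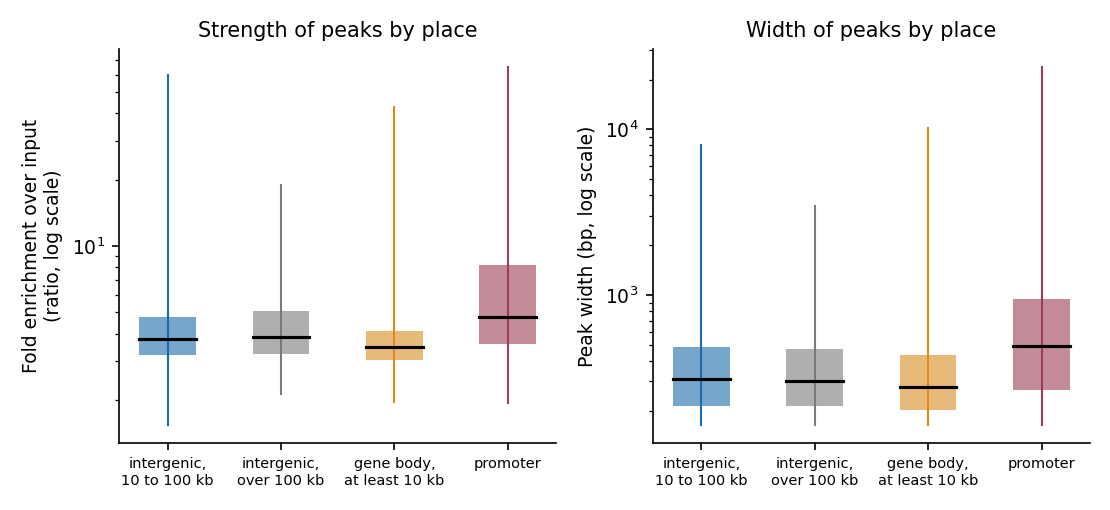
Fold enrichment over input (left, ratio, log scale) and peak width (right, bp, log scale) of peaks in 4 places. Boxes span the quartiles, the black line is the median and the thin line runs from the lowest to the highest peak. The distal intergenic box (median 3.81 and 309 bp) lies at the height of the one over 100 kb from a TSS and below the promoter box (4.75 and 492 bp).

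Peaks thinned out with distance from genes. The sequence that met the rule, sampled at every 100th base outside assembly gaps, came to 602.8 Mb or 21.3% of the ungapped genome, so the 3616 peaks amounted to 6.00 per Mb (Poisson interval 5.80 to 6.20), and they covered 0.258% of its bases. The density was 8.96 per Mb (interval 8.48 to 9.45) at 10 to 20 kb, where 1329 of the peaks lay. It was 6.48 per Mb at 20 to 30 kb, 4.92 per Mb at 40 to 60 kb and 3.71 per Mb (interval 3.24 to 4.22) at 80 to 100 kb. Beyond 100 kb it was 2.36 per Mb (interval 2.19 to 2.54). The median fold enrichment stayed between 3.73 and 3.86 and the median width between 303 and 317.5 bp in every distance bin. The density was thus the measure that moved with distance. Gene bodies at least 10 kb from a TSS held 15.8 peaks per Mb (interval 15.6 to 16.1) and the whole ungapped genome 23.6 per Mb.

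**Figure D2:**
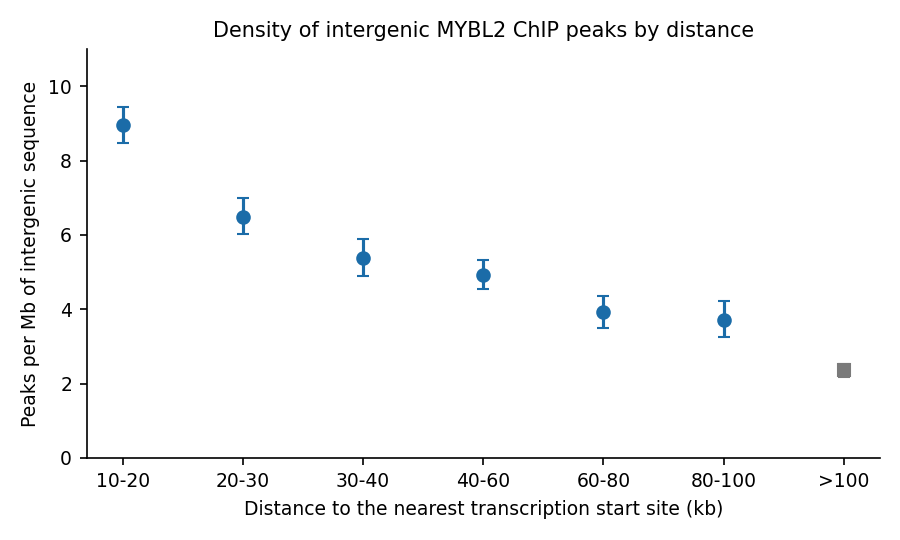
Peaks per Mb of intergenic sequence (vertical axis) by distance to the nearest TSS in kb (horizontal axis), with exact 95% Poisson intervals. Circles are the 3616 distal intergenic peaks and the square the 729 peaks over 100 kb away. Density falls from 8.96 per Mb at 10 to 20 kb to 3.71 per Mb at 80 to 100 kb and 2.36 per Mb beyond.

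The peaks lay on all 23 chromosomes listed. Density was lowest on chromosome 21 (26 peaks, 2.89 per Mb, interval 1.89 to 4.23) and chromosome X (119 peaks, 3.09 per Mb, interval 2.56 to 3.70). It was highest on chromosome 22 (58 peaks, 8.89 per Mb, interval 6.75 to 11.5) and chromosome 1 (397 peaks, 8.31 per Mb, interval 7.51 to 9.17). The median background at summits was 5.05 fragments on chromosome 1, 4.66 on chromosome 21, 4.28 on chromosome X and 3.98 on chromosome 22.

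The distance limits cut through peaks of ordinary strength. Just outside 10 kb lay a peak 9999 bp from SSX7 (fold enrichment 3.18). Just inside lay one 10006 bp from the lncRNA gene ENSG00000287907 (3.43). The last peak inside 100 kb was 99837 bp from ENSG00000250503 (2.88) and the first outside was 100072 bp from PDE3A (3.31).

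The strongest distal intergenic peak ranked 2 among all 66954. It lay at chr12:120728424-120731491, 10.6 kb upstream of SIRT4, which encodes a mitochondrial sirtuin, and had a fold enrichment of 59.98 (Poisson interval 53.0 to 67.6) from a pileup of 266 fragments. It spans RNU4-1 and RNU4-2, which encode the U4 RNA of the spliceosome and are of a record type that the rule does not count as a gene. The next, at chr1:146555732-146556699 and 77.9 kb from PRKAB2, a subunit gene of AMP-activated kinase, had 27.5 (interval 22.98 to 32.6) and touches RNVU1-8, a variant U1 RNA gene. Across the 3616 peaks, 4 touched a small nuclear RNA gene, 65 a pseudogene and 85 (2.35%) any gene record outside the protein-coding and lncRNA classes. Such records thus lay under few of these peaks, and 3 of the 5 strongest touched one. Beyond these 5 the contrast was small. Any such record was touched by 3.601% of the strongest 361 peaks and by 2.21% of the rest.

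The next strongest peaks were scattered over several chromosomes. The peak at chr19:51307540-51308474 (23.8, interval 20.0 to 28.2) overlaps C19orf48P, a transcribed pseudogene. The peak at chr17:41392859-41393816, 28.3 kb from TMEM106A, which encodes a membrane protein, had 27.5 and the same recovered pileup, 129 fragments, as the one near PRKAB2. Its neighbour 7.19 kb away, at chr17:41400198-41400701, had the lowest fold enrichment of all 66954 peaks, 1.54, from a pileup of 74 fragments over the highest background, 47.6 fragments. The peak at chr1:54953665-54955335 (24.3, interval 19.9 to 29.3), nearest to the lncRNA gene ENSG00000287582 and 53.9 kb from the thioesterase gene ACOT11, had a summit window of 82.2% GC.

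The peak at chr5:141669782-141671003 lay 24.95 kb from SPRY4, which encodes a Sprouty inhibitor of receptor tyrosine kinase signalling, and had a fold enrichment of 23.1 (interval 18.9 to 28.0). Fold enrichments of 18.4 and 17.5 were found near ENSG00000286743 and near NANOS2, a germ-cell RNA-binding protein gene. The last of the 10 were near ENSG00000224132 (17.1, on the side of the collagen VI gene COL6A3) and ENSG00000234455 (17.1). Of these 10 peaks, 5 had a protein-coding nearest gene, and in 4 the nearest gene (SIRT4, PRKAB2, SPRY4 or ENSG00000268375) also had a peak at a promoter. The strongest 361 peaks (fold enrichment of at least 6.35) had a median width of 766 bp against 287 bp in the rest and a median summit GC of 46.5% against 43.6%. Their median distance from a TSS was 27.3 kb, against 26.1 kb in the rest.

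Among the widest peaks, the first at chr7:116195761-116203862 covered 8102 bp and had a fold enrichment of 8.77. Its nearest TSS was that of the lncRNA gene ENSG00000235427, and the peak overlaps the 3′ end of CAV1, the caveolin gene, with its summit past that end. The second covered 5802 bp at chr1:38490717-38496518, 12.7 kb from UTP11, a gene of ribosomal RNA processing (9.53). The others were near BASP1 (chr5:17276299-17280324, 4026 bp), LINC00474 (chr9:118623430-118627101, 3672 bp) and ENSG00000285534, 35.4 kb from the insulin receptor substrate gene IRS2 (chr13:110401662-110405325, 3664 bp). Their fold enrichments were 6.25, 10.8 and 5.15. The 5 widest peaks were all above the upper quartile of 4.77, but none was among the 10 strongest.

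The nearest genes numbered 2054, and 1314 of them were nearest to 1 peak, 634 to 2 to 4 peaks and the others to 5 or more. The nearest TSS belonged to a protein-coding gene for 1978 peaks (54.7%, interval 53.1 to 56.3%), against 43.6% of the intergenic sequence that met the rule. Summits lay on the upstream side of that TSS for 1850 peaks (51.2%, interval 49.5 to 52.8%), against 56.6% of the sequence.

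Peaks were more often near genes that also had a promoter peak than the sequence they lay in. The nearest gene had a peak at a promoter for 1928 of 3616 peaks (53.3%, interval 51.7 to 55.0%), against 26.9% of the intergenic sequence that met the rule. Counted over distinct genes, a promoter peak was present at 1022 of 2054 (49.8%, interval 47.6 to 51.9%) and at 41.9% of all genes. Among protein-coding nearest genes the share was 73.7% (834 of 1131, interval 71.1 to 76.3%), against 59.4% of all protein-coding genes. Among lncRNA nearest genes it was 20.4% (188 of 923, interval 17.8 to 23.1%), against 22.9%. The shares of all genes were not limited to genes nearest to sequence that met the rule. When peaks under a fold enrichment of 5 were left out everywhere, 39.6% of the remaining 773 were nearest to a gene with a promoter peak. Promoter peaks under 5 were left out too, and 10835 of the 22943 reached 5. The shares of the sequence and of all genes were not recomputed, so 39.6% cannot be set against those above.

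The genes with the most peaks nearest to them were SCG2 (37 peaks), which encodes secretogranin II of neuroendocrine vesicles, then the lncRNA genes ENSG00000285584, ENSG00000285964 and ENSG00000232211 (12 each) and LINC01777 (10). YTHDF2, a reader of methylated adenosine in RNA, was nearest to 10. CSE1L, a nuclear transport receptor gene, FDX1, a ferredoxin gene, ENSG00000250024 and ENSG00000244791 were nearest to 9 each. In these genes the fold enrichments ran from 2.00 at CSE1L to 12.3 at LINC01777. SCG2, ENSG00000285584, YTHDF2, CSE1L and FDX1 also had promoter peaks, and the other 5 did not.

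Distal intergenic peaks came in clusters. The median gap between a summit and the next distal intergenic summit was 7.03 kb, and 1945 peaks (53.8%, interval 52.1 to 55.4%) lay within about 13 kb of another one, the stitching distance commonly used for super-enhancers, by which peaks were joined into chains here. Within 1 kb lay 954 peaks (26.4%). The peaks formed 668 chains of 2 or more and 1671 stayed single. Chains of 5 or more numbered 77 and held 510 peaks (14.1%). In gene bodies, where peaks were denser, 76.7% of the class lay within that distance of another, and over 100 kb from a TSS 47.3% did (interval 43.6 to 51.0%).

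Median strength was alike in long chains and single peaks. The median fold enrichment was 3.77 (quartiles 3.19 and 4.55) in chains of 5 or more, 3.82 in chains of 2 to 4 and 3.80 for single peaks. A fold enrichment of at least 5 was reached by 15.9% of peaks in chains of 5 or more (interval 12.8 to 19.3%) and by 21.9% of single peaks (interval 19.9 to 24.0%). Median widths were 333 and 294 bp.

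The longest chain stretched from SCG2 towards AP1S3, an adaptor complex gene. It held 36 peaks in 55.3 kb (chr2:224477203-224532521), from 10.24 to 65.3 kb upstream of SCG2, and peaks covered 24.4% of the span. Their fold enrichments ranged from 2.26 to 5.50 (median 3.49) and their median background was 4.12 fragments. The peaks of the locus were all of low height, with pileups of 13 to 30 fragments. The run did not stop at the gene boundary, since a further 29 peaks lay in the next 30 kb inside AP1S3, with fold enrichments of 2.13 to 6.55. The 2 peaks at SCG2 promoters had 2.58 and 2.66.

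**Figure D3:**
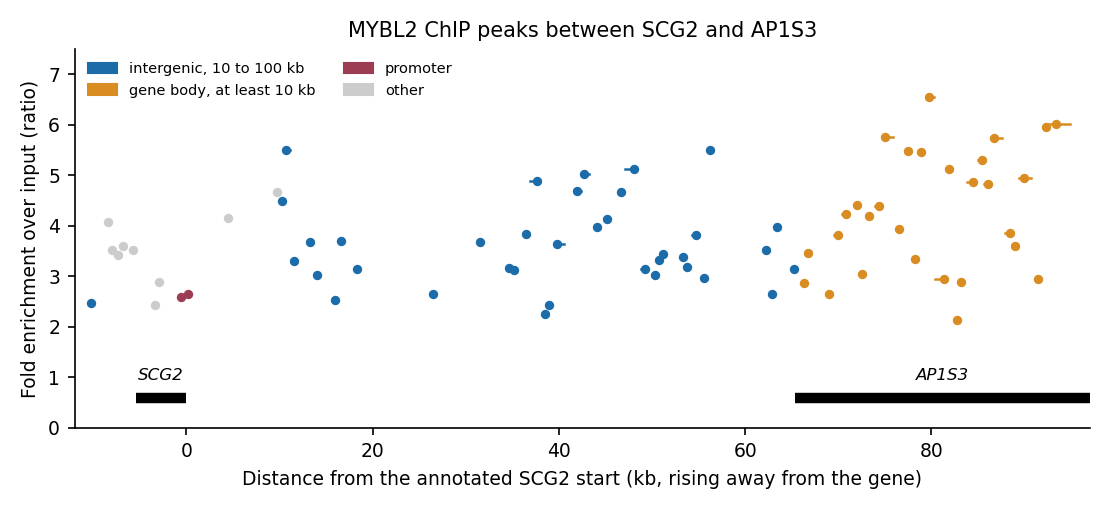
Peaks around SCG2 and AP1S3 by distance from the annotated SCG2 start in kb (horizontal axis) and fold enrichment over input (vertical axis). Points are summits, coloured lines the peak widths and black bars the gene bodies. The 36 intergenic peaks of the chain (blue) lie between 2.26 and 5.50 and run on into the AP1S3 gene body (orange).

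The next chains were shorter. A chain of 15 peaks in 35.2 kb lay on chromosome 8 (127401332 to 127436527), with LRATD2 as the commonest nearest protein-coding gene. Chains of 12 peaks lay on chromosome 10 (26952418 to 26965319, nearest protein-coding gene PDSS1, of coenzyme Q synthesis), on chromosome 3 (156424346 to 156441186, TIPARP, a mono-ADP-ribosyltransferase gene) and on chromosome 1 (29096646 to 29104407, YTHDF2). Their highest fold enrichments were 9.14, 9.004, 6.31 and 4.90 in that order. Peaks covered 54.3% of the chain near PDSS1 and 45.8% of the one near YTHDF2, against 24.98% of the one on chromosome 8.

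To place the peaks among genes of interest, 7 gene lists were read for nearest genes, beside 5.31% of all genes and 5.63% of protein-coding genes. Of 50 G2/M genes, 5 were the nearest gene of a distal intergenic peak (10.0%, 11 peaks, median fold enrichment 3.66 against 3.81 over all 3616). ECT2, which encodes the exchange factor of cytokinesis, had the strongest, 58.3 kb downstream at chr3:172594146-172594755 (15.3, pileup 82 fragments, interval 65.2 to 101.8). CDK1, the mitotic kinase gene, was nearest to 4 peaks of 2.88 to 4.24, the strongest of them 11.2 kb downstream. NUF2 of the kinetochore had 2 peaks (up to 3.66), NUSAP1 of the spindle 1 (3.59) and CENPF 1 (2.88). All 5 genes also had promoter peaks, beside 73.7% of all protein-coding nearest genes, and the counts for the other lists below read against the same share.

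Among 30 matched genes that fell after MYBL2 knockdown, a list that the study chose on RNA of its own cell lines, 5 were nearest genes (16.7%, 8 peaks, median fold enrichment 3.09) and all 5 had promoter peaks. ACTR2, a subunit gene of the Arp2/3 complex, had 3 peaks, the strongest at 5.22 (pileup 29, interval 19.4 to 41.6). PPP1CC, a catalytic subunit gene of protein phosphatase 1, had 4.12, NCKAP1 of the WAVE complex 3.18, CDKN3 3.001 and IGF2BP2 2.66. The counting intervals of these 5 pileups overlapped. Of 41 matched genes that rose after the knockdown in the same RNA data, CREB5, a CREB family transcription factor gene, was the one nearest gene (2.44%, 3 peaks, the strongest 5.76 and median 3.55).

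Of 30 genes known to be activated by the EwS fusion, 4 were nearest genes (13.3%, 7 peaks, median 5.30) and all had promoter peaks. CCND1 had 4 peaks upstream, with fold enrichments of 8.12, 5.86, 4.73 and 3.30, and the one at 8.12 (chr11:69436938-69438380, 18.7 kb away, pileup 45 fragments, interval 32.8 to 60.2) touches the tract of 15 repeats printed above. NPY1R, a neuropeptide Y receptor gene, had 5.32, and PPP1R1A, which encodes an inhibitor of protein phosphatase 1, had 5.30. PAX7, a paired box transcription factor gene, had 2.92. Of 26 genes repressed by the fusion, the Sprouty gene SPRY1 (2 peaks, up to 10.3) and the Wnt inhibitor gene DKK1 (3.55) were nearest genes (7.69%, median 6.20), and 1 of these 2 had a promoter peak. JUND was the only 1 of 20 immediate early genes (5.00%), with a fold enrichment of 11.7 at 10.6 kb upstream. Of 42 neural crest and mesenchymal transcription factor genes, 5 were nearest genes (11.9%, 11 peaks, median 3.46), namely PAX3 (up to 6.65), RUNX3 (5 peaks, up to 6.11), POU3F2 (3.85), TFAP2B (3.46) and PAX7, and 4 of the 5 had promoter peaks. With 1 to 5 genes a list, these shares rest on few genes.

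Sequence at the summits was a little richer in GC than its surroundings. The mean GC within 50 bp of the summit was 45.1%, against 43.3% in windows of the same length 500 bp to either side. At promoters the values were 58.0% and 53.3%, in distal gene bodies 40.5% and 40.9%, and over 100 kb from a TSS 40.1% and 37.8%. The CpG observed/expected ratio was 0.31 at the distal intergenic summits and 0.27 in their flanks, against 0.74 and 0.59 at promoters. It was 0.22 and 0.24 in distal gene bodies, and 0.20 and 0.21 over 100 kb from a TSS. Summit windows of at least 60% GC were found in 367 of the 3616 peaks (10.1%). The share was 50.2% at promoters, 3.79% in distal gene bodies and 1.51% over 100 kb from a TSS. Those 367 had a median fold enrichment of 4.35 and 37.6% of them reached 5, against 3.59 and 16.4% of the 1280 summits under 40% GC.

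The MYB motif was 1.34 percentage points more frequent at the summits than beside them, with intervals that overlapped. It was in 379 of 3616 summit windows (10.5%, interval 9.50 to 11.5%) and in 9.14% of flanking windows (interval 8.49 to 9.83%), beside 10.4% of all 66954 summits. Among the 773 stronger peaks the shares were 9.70% at summits and 9.70% in flanks. Over 100 kb from a TSS they were 10.0% and 9.95%, in distal gene bodies 11.1% and 10.1%, and at promoters 9.31% and 8.99%. The CHR motif (TTTGAA or TTCGAA), the cell cycle homology element of G2/M promoters, was in 10.7% of summits and 11.2% of flanks, and CCAAT, the NF-Y box, in 13.2% and 13.6%. CHR and CCAAT motifs were thus no more frequent at summits than beside them. A run of 3 GGAA repeats was in 0.415% of summits and 0.678% of flanks.

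AP-1, TEAD and ETS motifs had higher shares at summits than in flanks, with intervals that did not overlap. TGANTCA, bound by AP-1 proteins, was in 203 summit windows (5.61%, interval 4.89 to 6.41%) against 3.19% of flanks (interval 2.801 to 3.63%), and in 6.08% against 2.59% of the stronger 773. At summits over 100 kb from a TSS it was in 5.35% against 3.36% of flanks, close to the values here. Its share was 4.29% at distal gene-body summits and 1.89% at promoter summits, against 3.36% of all summits. The TEAD motif ACATTCC was in 2.05% of summits (interval 1.61 to 2.56%) and 1.23% of flanks (interval 0.989 to 1.51%), beside 1.58% of all summits. The ETS motif was sought only as CCGGAAGT. This word was rare, in 15 summits (0.415%, interval 0.232 to 0.683%) and 4 of 7232 flanks (0.0553%). It was in 0.705% of all summits and 1.77% of promoter summits. E2F motifs (TTTGGCGC, TTTCCCGC, TTTGCCGC or TTTCGCGC) were in 15 summits (0.415%) and 0.194% of flanks, with 0.521% of all summits holding one. CTCF motifs (AGGGGGCG, AGGTGGCG or AGATGGCG, or any of these with A in the last place) were in 1.88% of summits and 1.69% of flanks, and in 2.91% of all summits. The RUNX motif TGTGGTT was in 1.71% of each and the NRF1 motif GCGCATGC in 3 summits, beside 1.76% and 0.296% of all summits.

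Of the 8-letter words present in at least 1% of the summit windows, 699 in all, ATTTCCTG had the largest ratio of summit to flank share. This search was made after the data were seen and is a description only. The word was in 151 of 3616 summit windows (4.18%, interval 3.55 to 4.88%) and 0.885% of flanks (interval 0.682 to 1.13%). At the 729 summits over 100 kb from a TSS the shares were 5.76% and 0.617%, in distal gene bodies 2.35% and 0.815%, and at promoters 0.819% and 0.564%, with 1.67% of all summits holding it. The 151 peaks were spread over 149 nearest genes and had a median fold enrichment of 3.98 (quartiles 3.31 and 5.36). The strongest of them were near LINC01777 (12.3), SPRY1 (10.3) and PHLPP1 (9.26), as printed above. By position, the word was in 2.30% of peaks in the 50 bp before the summit and 2.18% in the 50 bp after it, and in under 0.70% of each 50-bp bin more than 200 bp away. GGGGATTA and AGGATTAG had the next highest ratios (1.27% of summits against 0.304% of flanks, and 1.02% against 0.249%). ATGACTCA, which contains an AP-1 motif, was in 1.38% against 0.373%. CAGGAAAT and the ETS motif CCGGAAGT both hold GGAA. Other words with GGAA were read from the same ranking by ratio, so their higher shares at summits were fixed by that choice. AGGAAATG, which overlaps CAGGAAAT, was in 3.95% of summits against 1.04% of flanks. ACAGGAAG was in 2.30% against 0.733% and AGGAAGTG in 2.07% against 0.678%. CAGCAGGA, a high-ranking word without GGAA, was in 2.07% against 0.636%. Which proteins bind these words was not tested.

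**Figure D4:**
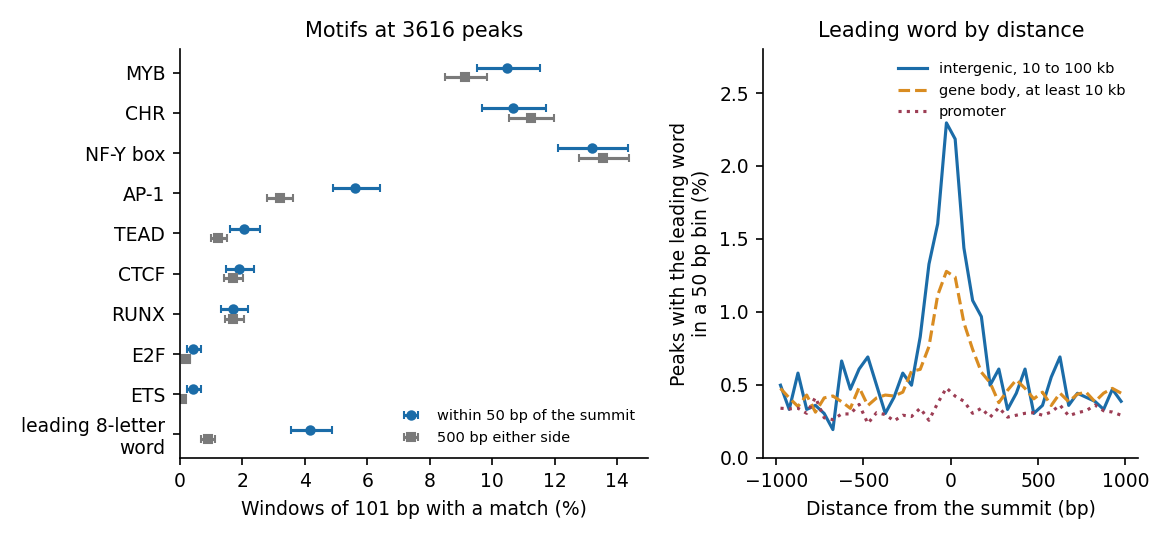
Left, share of windows (%, horizontal axis) holding each motif within 50 bp of the summit (circles) and in windows of the same length 500 bp to either side (squares) for the 3616 distal intergenic peaks, with exact 95% binomial intervals. Right, share of peaks (%) with the leading 8-letter word in each 50-bp bin by distance from the summit in 3 places. The AP-1 and leading-word shares at summits (5.61% and 4.18%) exceed those in the flanks (3.19% and 0.885%), and the word peaks at the summit.

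Long GGAA tracts were touched by these peaks more often than short ones. Of 987 tracts of at least 10 GGAA repeats in the intergenic sequence that met the rule, 46 were touched by a peak (4.66%, interval 3.43 to 6.17%), against 34 of 3814 tracts of 4 to 9 repeats (0.891%, interval 0.618 to 1.24%). By length the share was 0.768% at 4 to 5 repeats, 1.67% at 6 to 7 and 0.719% at 8 to 9, then 2.67% at 10 to 11, 5.06% at 12 to 13, 5.96% at 14 to 15 and 6.02% at 16 or more, with intervals of neighbouring lengths that overlapped. In gene bodies at least 10 kb from a TSS the shares were 6.88% and 1.81%, and over 100 kb from a TSS 4.14% and 0.390%, so long tracts led in each of these places. Repeat numbers are those of the reference, and A673 alleles may be longer or shorter. The tract analysis was also chosen after the data were seen.

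**Figure D5:**
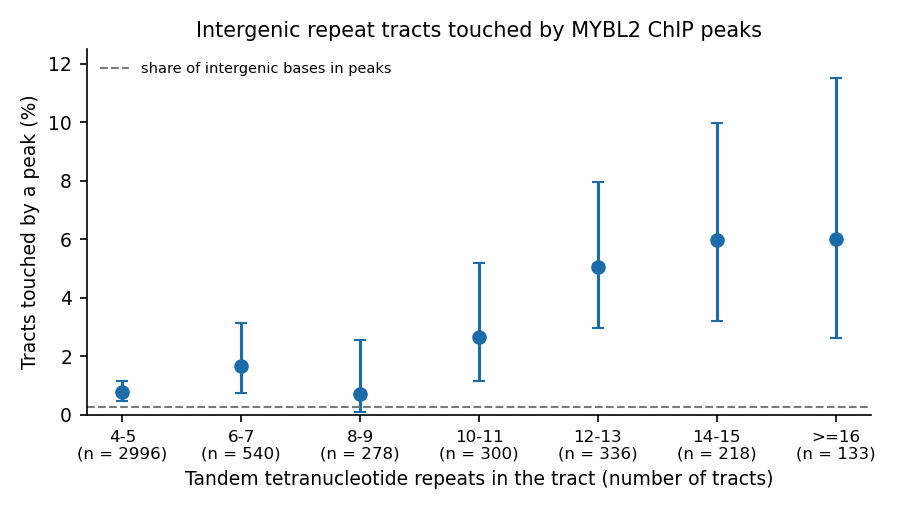
Share of GGAA tracts in intergenic sequence 10 to 100 kb from a TSS that were touched by a peak (%, vertical axis), by number of repeats (horizontal axis, with the number of tracts), with exact 95% binomial intervals. The dashed line is the share of bases of that sequence within peaks (0.258%). The share is 0.768% at 4 to 5 repeats and 5.96% at 14 to 15.

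In all, 44 of the 3616 peaks (1.22%, interval 0.885 to 1.63%) touched a tract of at least 10 repeats. The share was 1.92% (interval 1.05 to 3.20%) of peaks over 100 kb from a TSS, 0.417% (interval 0.321 to 0.532%) in distal gene bodies and 0.0610% at promoters. These 44 peaks had a median fold enrichment of 5.14 (range 2.39 to 14.2) and a median width of 1224 bp, against 3.80 and 304 bp in the 3551 peaks that touched no tract of 4 or more. A fold enrichment of at least 5 was reached by 22 of them. Their median background was 4.66 fragments, against 4.44. The part that the greater width played in touching a tract was not tested.

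No summit of the 44 peaks lay inside its tract. The summit lay 17 to 1514 bp from the tract's nearer end (median 227.5 bp), and in 16 peaks the tract ran past the end of the peak. The strongest of the 44 was at chr14:102989894-102991985, 15.2 kb upstream of ANKRD9 (14.2, 13 repeats), followed by LINC02066 (10.3, 10 repeats), ENSG00000287015 (9.68, 12 repeats) and the 8102-bp peak at the end of CAV1 (8.77, 12 repeats). Among nearest genes of known function were SYT6, a synaptotagmin gene (8.55, 13 repeats), CDH8, a cadherin gene (7.19, 16 repeats), PKP1 of desmosomes (6.74, 13 repeats), CCNA1, the cyclin A1 gene (3.59, 17 repeats), and KIRREL1, an adhesion protein gene (3.56, 17 repeats). Fold enrichment did not follow repeat number in these examples.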

How the data were processed

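Per the labels, A673 chromatin was sequenced as 1 MYBL2 ChIP and 1 input library. The authors aligned reads to hg19 with Bowtie2 (2.1.10 per the submitters' processing notes) and called narrow peaks with MACS2 (2.0.10) against the input. The deposited list gives fold enrichment (a linear ratio), −log10 p-value and −log10 q-value, and a score. Deposited coordinates lay within GRCh37, which has hg19 coordinates (0 peaks beyond a chromosome end). A whole-number pileup solved fold enrichment and p for all 66954 peaks (largest misfit 3.49e-05 in −log10 p). The background floor of 3.45 fragments corresponds to about 56800000 ChIP reads, if fragments were 164 bp long (the smallest peak width) and the genome size was the preset 2700000000 bp.

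Here the list was joined to 20098 protein-coding and 18592 lncRNA genes (193738 TSSs) of GENCODE lifted to GRCh37, with Python 3.11.15, numpy 2.4.6, pandas 2.3.3 and scipy 1.17.1. The steps were tested on simulated data. Shares have exact Clopper-Pearson and counts exact Poisson intervals at 95%. A peak's fold interval is the Poisson interval of its pileup over a fixed background. Medians, densities and motif shares (within 50 bp of the summit, and 500 bp to either side) are descriptions of 1 library, with no test. The members, gene lists and motifs were chosen with earlier results of these data known. Older gene symbols were matched through RefSeq's gene table, 1 in the list that fell after knockdown and 10 in the one that rose. Named peaks were the 10 strongest, the 5 widest, the 10 genes nearest to most peaks, the 5 longest chains, those at the distance limits and up to 6 genes a list. Sequences were printed for the strongest peaks and for the motifs the results turn on, and the peaks at long GGAA tracts were named after their values were seen. Alternatives were stricter peak thresholds, other gene and TSS sets, positions, windows and distances.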

Additional observations from a re-analysis of the deposited data

How the results depend on the processing

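No paired analysis was possible because the ChIP and the input were 1 library each. Stricter peak thresholds and protein-coding genes alone moved most values. Keeping peaks with −log10 q from 5 upward left 1964, with a median fold enrichment of 4.66, a median width of 421 bp, 41.8% within about 13 kb of another and 47.3% nearest to a gene with a promoter peak. Keeping fold enrichments from 5 upward, these became 773, 6.25, 607 bp, 20.7% and 39.6%, and the MYB share at summits exceeded that in flanks by 0 percentage points, against 1.34 over the whole set. With protein-coding genes alone the rule selected 5024 peaks in place of 3616. Their median fold enrichment was 3.88, the median width 323 bp, the clustered share 61.5% and the promoter share 76.4%. With only the outermost TSS of each gene the clustered share was 56.3% and the promoter share 47.5%. The clustered share was 46.8% at 5 kb and 60% at 25 kb, and a promoter window of 500 bp gave 51.5%. The share of the sequence nearest to genes with a promoter peak was not recomputed for any of these. The changes in the promoter share therefore have no matching expectation. The other 33 of 53 alternatives stayed within 1.5 times the count or within the interval of the value. Summit pileups of a median of 20 fragments limit what can be said of weak peaks. There were 32 alternatives for the AP-1, ETS and ATTTCCTG shares and the long tracts, some chosen after seeing the data. Of these, 26 stayed within the interval and 0 reversed the direction. The tract share had no direction to reverse, and ATTTCCTG was picked for its ratio in these same peaks. The absence of reversals therefore says something of the AP-1 and ETS shares only. Among those added, the share of long tracts touched was 2.43% with fold enrichments from 5 upward and 5.53% for tracts of at least 12 repeats. The share of short tracts was not recomputed beside them. The cause was not tested.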
